A study of Rattus norvegicus with 16 samples.

Results

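Heat shock proteins and their partner chaperones were followed in the L4/L5 dorsal root ganglia (DRG), which hold the cell bodies of the sensory neurons of the sciatic nerve, after spared nerve injury (SNI) in adult and young rats. The group was defined by name as 10 genes: the small heat shock proteins Hspb1, Hspb8 and Cryab, the Hsp70 and Hsp110 proteins Hspa5, Hspa8 and Hsph1, the Hsp90 protein Hsp90aa1, the mitochondrial chaperonin Hspd1, the J protein Dnajb1 and the phosducin-like protein Pdcl3. Every Affymetrix probe set (Affy_ID) annotated to exactly 1 of these genes was taken, which gave 13 Affy_IDs for 8 genes, out of 20826 such Affy_IDs for 14217 genes on the array. Hspa8 and Hsp90aa1 were represented only by Affy_IDs that list several genes, so no value is given for either. The member Pdcl3 was on the study's own list of genes called after injury in adult rats only. That list was selected on these same arrays. Neither the adult rise of Pdcl3 nor its difference between the ages is therefore independent evidence of that selection.

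All rats were Sprague-Dawley and all DRG were collected 7 days after surgery. Adult rats were male and 2 months old, and young rats were operated on at 10 days and sampled at 17 days of age; the sex of the pups was not given. In SNI the common peroneal and tibial branches of the sciatic nerve were ligated and cut and the sural branch was spared, whereas in sham surgery the nerves were exposed only. Adult sham, adult contralateral (the uninjured side of SNI rats), adult SNI and young sham had 3 arrays each, and young contralateral and young SNI had 2 each. Every array held RNA pooled from 3 adult rats (6 DRG) or 4 young rats (8 DRG), so the spread between arrays is that between pools. Values are log2 GC-RMA expression values as deposited, a difference of 1 is therefore a doubling of signal, and a difference passed when its limma p-value, adjusted by Benjamini-Hochberg over all 31042 Affy_IDs, was below 0.05. In whole ganglia a smaller number of cells of a type and less RNA per cell cannot be told apart.

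Chaperones bind proteins that are unfolded, newly made or damaged, and keep them from aggregating until they are folded or removed. Small heat shock proteins hold such clients without using ATP, Hsp70 proteins refold them with J proteins as partners that deliver the client, Hsp110 proteins exchange the nucleotide on Hsp70, and chaperonins enclose the client in a chamber. Many of these genes are driven by heat shock factors through repeated heat shock elements in the promoter, while Hspa5, the Hsp70 of the endoplasmic reticulum (ER), is driven through ER stress elements. In sensory neurons Hspb1 is known as a protein that accompanies survival and regrowth of cut axons, and mutations of HSPB1 and HSPB8 cause inherited neuropathies in people.

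Promoters of 8 of the 10 genes were read from RefSeq (assembly GRCr8); Cryab and Hsp90aa1 were not among them. Each window holds 250 bases before the gene's start and 50 from it, counted with the start as 0 and written 5′ to 3′ on the gene's strand. Both strands were searched for a heat shock element of 2 units (GAANNTTC or TTCNNGAA), one of 3 units (GAANNTTCNNGAA or TTCNNGAANNTTC, which also contains the 2-unit form), the ER stress element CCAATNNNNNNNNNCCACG, the cAMP response element TGACGTCA and the AP-1 site TGANTCA, the last because AP-1 factors are known to be induced in injured sensory neurons. The 4 promoters shown include those of the member that rose after adult injury (Pdcl3) and the member with the largest shift that missed the threshold (Hspb1). The others belong to the member that differed with age (Hsph1) and to Hspd1, which passed in no comparison and had overlapping heat shock elements. Capitals mark the matches.
Pdcl3 promoter, GRCr8 chr9:48729833-48730132, plus strand: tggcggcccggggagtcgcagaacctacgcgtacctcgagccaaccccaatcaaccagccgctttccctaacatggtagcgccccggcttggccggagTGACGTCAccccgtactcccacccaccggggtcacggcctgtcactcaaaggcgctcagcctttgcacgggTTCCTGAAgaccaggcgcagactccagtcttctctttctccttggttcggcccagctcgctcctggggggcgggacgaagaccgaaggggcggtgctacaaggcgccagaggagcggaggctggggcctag
Hspb1 promoter, GRCr8 chr12:26432252-26432551, minus strand: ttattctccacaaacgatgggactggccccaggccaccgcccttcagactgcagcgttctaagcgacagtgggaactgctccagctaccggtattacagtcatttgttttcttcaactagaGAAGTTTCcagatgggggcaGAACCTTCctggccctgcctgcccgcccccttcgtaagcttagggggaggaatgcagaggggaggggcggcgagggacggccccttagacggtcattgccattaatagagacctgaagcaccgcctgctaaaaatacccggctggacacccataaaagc
Hsph1 promoter, GRCr8 chr12:10427118-10427417, plus strand: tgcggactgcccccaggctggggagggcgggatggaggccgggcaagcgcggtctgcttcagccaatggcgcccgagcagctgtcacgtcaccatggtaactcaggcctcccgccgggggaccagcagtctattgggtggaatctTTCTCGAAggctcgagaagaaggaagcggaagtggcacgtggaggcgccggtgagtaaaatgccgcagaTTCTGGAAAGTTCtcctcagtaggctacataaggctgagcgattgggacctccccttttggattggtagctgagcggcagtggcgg
Hspd1 promoter, GRCr8 chr9:64083988-64084287, minus strand: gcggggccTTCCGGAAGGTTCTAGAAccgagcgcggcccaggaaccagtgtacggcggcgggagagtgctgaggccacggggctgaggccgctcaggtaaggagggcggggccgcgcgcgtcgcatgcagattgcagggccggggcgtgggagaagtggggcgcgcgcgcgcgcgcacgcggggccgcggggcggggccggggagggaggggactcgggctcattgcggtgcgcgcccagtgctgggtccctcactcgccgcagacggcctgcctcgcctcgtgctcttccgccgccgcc
The 2-unit element was present in 7 of the 8 windows, against 15.9% of the 33469 rat promoters searched, and the 3-unit element in 3 (Hspa8, Hspd1 and Hsph1), against 0.798%. The Pdcl3 window held a single 2-unit match from -81 to -74 and the cAMP response element from -152 to -145, a motif found in 1.83% of all promoters and in no other member. The ER stress element was found in Hspa5 alone, from -43 to -25, and in 0.0657% of all promoters. The AP-1 site, present in 7.33% of all promoters, was in none of the 8. These are matches of letters and were not tested as binding sites.

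Markers of the labelled tissue were present: the mean of 9 sensory neuron markers lay between 13.28 and 13.67 on 15 arrays and at 12.82 on young SNI replicate 2. That array stood apart: its mean of 5 oligodendrocyte markers was 11.57 and that of 4 central neuron markers 8.88, where the other arrays reached at most 4.12 and 2.83. The main differences that involve young SNI are therefore also given without it below. The injury labels were clear in the adults, where the mean of 10 genes known to be induced in injured sensory neurons was 11.17 to 11.60 with SNI, 7.11 to 7.48 with sham surgery and 6.05 to 6.31 contralaterally. In the young it was 8.34 and 10.33 with SNI, 7.93 to 11.13 with sham surgery and 6.07 and 9.74 contralaterally, so the young groups overlapped. Atf3, a transcription factor induced by axotomy, was 7.77 and 10.17 in young SNI and reached 11.00 in young sham replicate 2. Young arrays therefore did not separate by injury label in these genes, and the part of this in the young results below was not tested. Xist, a transcript of female cells, was at 2.57 or below on all adult arrays, at 11.84 and 12.05 in young SNI, at 11.87, 2.36 and 9.77 in young sham and at 2.35 and 11.51 in young contralateral. The young SNI and contralateral arrays of replicate 1 thus differed in it. Contralateral DRG came from the other side of SNI rats, but the study removed 1 young contralateral and 1 young SNI array as outliers. The labels do not say that equal replicate numbers in these groups mean the same rats. They were used as given.

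In adult rats 1 member rose after SNI, Pdcl3, a cytosolic protein that works with the chaperonin CCT in folding actin and tubulin. All 3 of its Affy_IDs were higher on every adult SNI array than on every other adult array, which also held for 3.17% of all Affy_IDs. Affy_ID 1374153_at was 5.46, 5.38 and 5.49 in adult sham, 5.26, 5.50 and 5.45 in adult contralateral and 7.09, 7.62 and 7.41 in adult SNI. Affy_ID 1373052_at was 9.89, 9.93 and 10.18 in adult sham, 9.92, 10.26 and 9.79 in adult contralateral and 10.97, 11.44 and 11.56 in adult SNI. Affy_ID 1377779_at was 9.26, 8.48 and 8.74 in adult sham, 8.57, 8.57 and 8.53 in adult contralateral and 9.87, 9.85 and 9.84 in adult SNI. The 3 SNI values of the last one lay within 0.03 of each other, and its sham values were the most scattered.

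**Figure D1:**
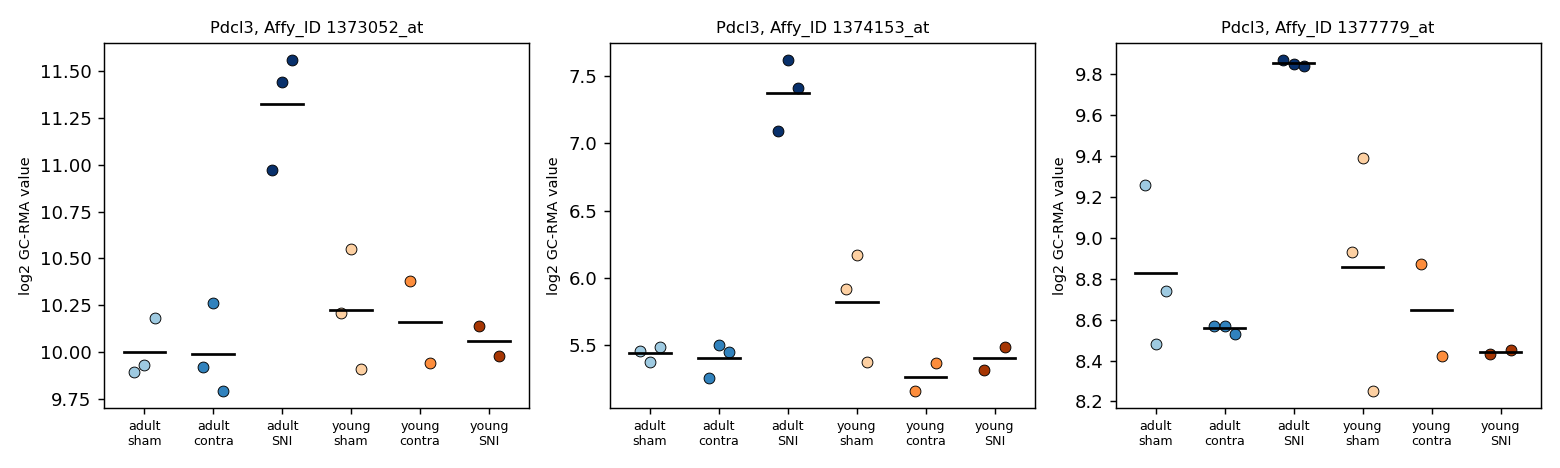
Log2 GC-RMA values of the 3 Pdcl3 Affy_IDs on each of 16 arrays (points) by group, with group means (bars); contra, contralateral. The 3 adult SNI arrays lie above all other adult arrays in each panel, and the vertical scales differ between panels.

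Against the mean of the adult sham and contralateral groups, Pdcl3 was higher by 1.95 (SE 0.16, 3.86-fold, adjusted p = 0.000281, limma) on 1374153_at, by 1.33 (SE 0.18, 2.51-fold, adjusted p = 0.00443) on 1373052_at and by 1.16 (SE 0.22, 2.24-fold, adjusted p = 0.0287) on 1377779_at. These 3 Affy_IDs were the members that passed, 3 of 13 beside 1.28% of all Affy_IDs in either direction and 1.1% that were higher. Against adult contralateral alone the same 3 passed (beside 1.03% of all Affy_IDs), with 1377779_at higher by 1.30 (adjusted p = 0.039). Against adult sham alone 2 passed, beside 0.48% of all Affy_IDs, because 1377779_at, higher by 1.03 (SE 0.25), had an adjusted p of 0.164. With the replicate number as a block 1373052_at missed the threshold against sham (adjusted p = 0.055), as did 1377779_at against contralateral (adjusted p = 0.0508). Affy_ID 1374153_at passed all 3 adult injury comparisons whichever of the 16 arrays was left out, and 1373052_at passed against both controls together in all 16 such fits and against each control in 12; 1377779_at passed against both controls in 8.

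Hspb1, the small heat shock protein also called Hsp27, had the next largest shift in adult SNI and did not pass. It was 12.92, 12.84 and 12.85 in adult sham, 12.62, 12.95 and 12.35 in adult contralateral and 13.29, 13.85 and 13.86 in adult SNI. Every SNI array was above every control array, as for Pdcl3 and for 3.17% of all Affy_IDs. The difference from both controls was 0.91 (SE 0.28, 95% interval 0.29 to 1.54, adjusted p = 0.218, limma), that from sham 0.80 (adjusted p = 0.587) and that from contralateral 1.03 (adjusted p = 0.251). It passed in none of the 16 fits that left out an array.

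The other 2 small heat shock proteins were level in adults beside their spread. Hspb8, which takes clients to autophagy together with Bag3, differed by 0.24 and 0.29 on its 2 Affy_IDs between adult SNI and both controls, with 95% intervals of -0.36 to 0.85 and -0.28 to 0.86. Cryab, alpha-B crystallin, was 12.75, 12.41 and 13.39 in adult sham, 12.48, 12.91 and 12.71 in adult contralateral and 12.63, 12.68 and 13.42 in adult SNI, so the groups overlapped. Cryab is also abundant in muscle, and the mean of 8 skeletal muscle markers ranged from 4.72 to 13.35 over the 16 arrays; it was 12.39 on adult sham replicate 3 (Cryab 13.39), 8.92 on adult SNI replicate 3, which had the highest Cryab value (13.42), and 13.35 on young contralateral replicate 1 (Cryab 13.15). The part of muscle RNA in the Cryab values was not tested.

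**Figure D2:**
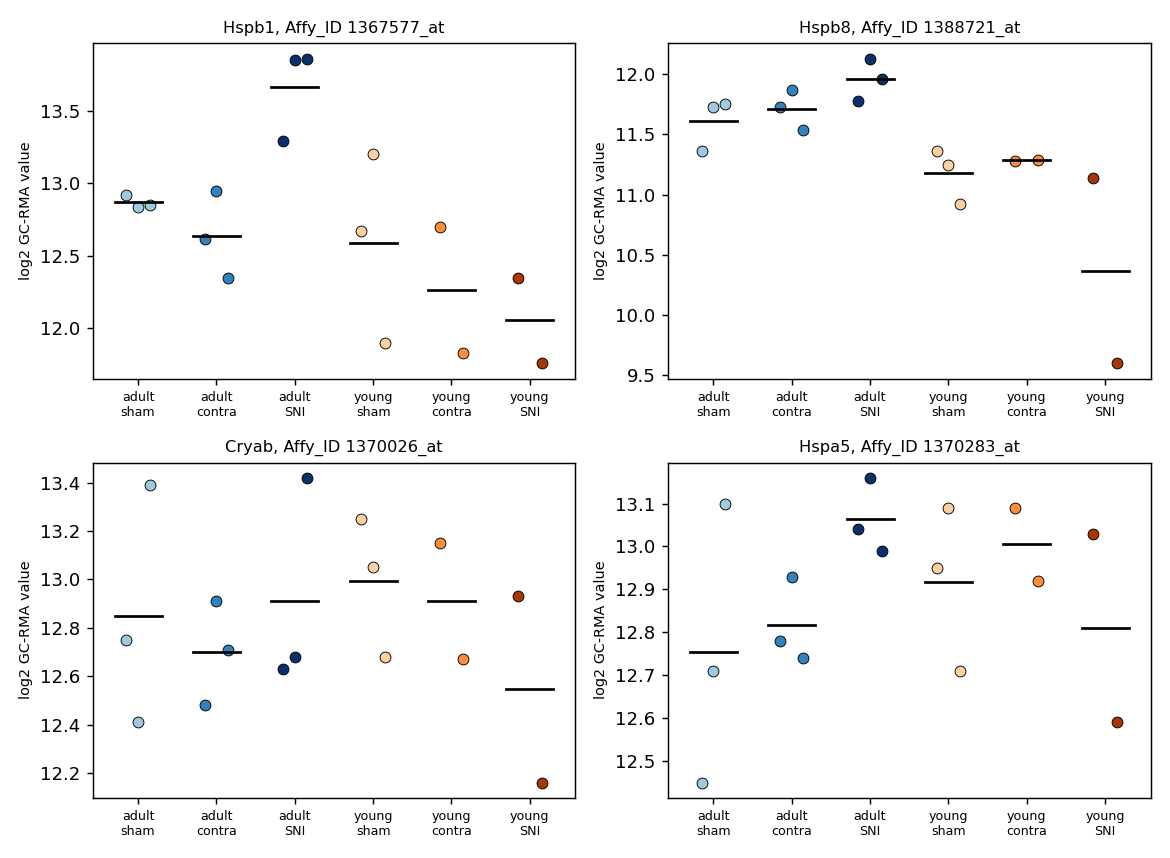
Log2 GC-RMA values of Hspb1, Hspb8, Cryab and Hspa5 on each of 16 arrays (points) by group, with group means (bars); vertical scales differ. The 3 adult SNI arrays lie above the adult controls for Hspb1 alone, an order shared by 3.17% of all Affy_IDs. Young SNI replicate 2 is the low Hspb8 point at 9.60.

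Of the ATP-driven chaperones and their partners none passed in adult injury. Hspa5, the ER Hsp70 also called BiP, differed by 0.28 (95% interval -0.03 to 0.59) from both controls, with SNI arrays between 12.99 and 13.16 and control arrays between 12.45 and 13.10. Dnajb1, a J protein that activates Hsp70, differed by 0.26 (95% interval -0.03 to 0.55) on 1388722_at and by 0.06 (95% interval -0.37 to 0.49) on 1383302_at, so its Affy_IDs did not give the same size. Hspd1, the chaperonin Hsp60, differed by -0.11 (95% interval -0.41 to 0.19), and Hsph1, an Hsp110 protein, by -0.22 and -0.19 (95% intervals -0.60 to 0.17 and -0.51 to 0.14). For each of these 4 genes the intervals hold neither a doubling nor a halving. Over the 13 Affy_IDs the median difference was 0.26, beside -0.03 over all Affy_IDs tested, and 10 of 13 were above 0. Under quantile normalisation the median was 0.17, with 4 of 13 below 0.

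In young rats no member passed between SNI and controls in the 3 comparisons made, beside 0.0161% of all Affy_IDs called against sham, 0.00966% against contralateral and 0.0226% against both. At an unadjusted p below 0.05 there were 1, 2 and 2 member Affy_IDs, all of Hspb8, beside 5.91%, 5.94% and 7.86% of all Affy_IDs. Pdcl3, the member that rose in adults, was 5.32 and 5.49 in young SNI on 1374153_at, beside 5.92, 6.17 and 5.38 after sham surgery and 5.16 and 5.37 on the contralateral side. On 1373052_at it was 10.14 and 9.98 in young SNI, beside 10.21, 10.55 and 9.91 after sham surgery and 10.38 and 9.94 on the contralateral side. On 1377779_at it was 8.43 and 8.45 in young SNI, beside 8.93, 9.39 and 8.25 after sham surgery and 8.87 and 8.42 on the contralateral side. Young SNI thus lay within the range of young controls on all 3 Affy_IDs. In this order the differences from the mean of both controls were -0.14 (95% interval -0.55 to 0.27), -0.13 (95% interval -0.59 to 0.33) and -0.31 (95% interval -0.89 to 0.26), and without young SNI replicate 2 they were -0.22, -0.05 and -0.32. Hspb1 was 12.35 and 11.76 in young SNI, beside 12.67, 13.20 and 11.90 after sham surgery and 12.70 and 11.83 on the contralateral side, a difference of -0.37 (95% interval -1.12 to 0.37) that became -0.08 without young SNI replicate 2.

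All 13 Affy_IDs had a negative difference between young SNI and both young controls, with a median of -0.28 beside 0.01 over all Affy_IDs. This pattern rested on young SNI replicate 2, the array with oligodendrocyte and central neuron markers. Without it 7 of 13 were below 0 and the median was -0.015. With both arrays and quantile normalisation 10 of 13 were below 0, with a median of -0.15. Hspb8 showed this most: on 1388721_at it was 11.14 and 9.60 in young SNI, beside 11.36, 11.25 and 10.92 after sham surgery and 11.28 and 11.29 on the contralateral side. Its difference of -0.86 (SE 0.31, adjusted p = 0.626) became -0.09 without replicate 2, and -1.63 (adjusted p = 0.000283) when replicate 2 was the remaining array, a fit in which 12.5% of all Affy_IDs passed. On 1387282_at the difference of -0.73 (adjusted p = 0.632) became 0.019 and -1.48 in the same fits.

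**Figure D3:**
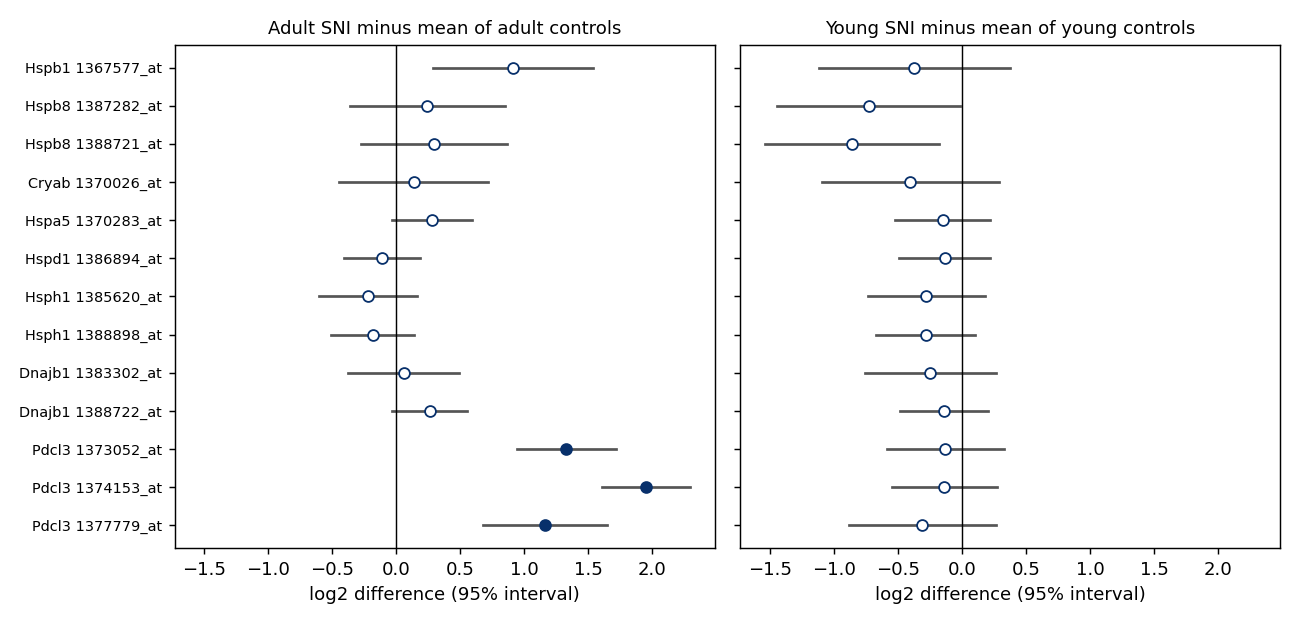
Log2 difference between SNI and the mean of sham and contralateral (points, limma) with 95% intervals for the 13 Affy_IDs in adult rats (left) and young rats (right); filled points passed an adjusted p of 0.05. The 3 Pdcl3 Affy_IDs passed in adults, between 1.16 and 1.95, and all 13 points lie below 0 in the young (10 under quantile normalisation).

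The difference between the adult and the young response was then tested directly. For Pdcl3 this test is not independent of the study's list, which kept genes called in adults only on these same arrays. Against sham, the adult response of Pdcl3 exceeded the young one by 2.35 (SE 0.27, adjusted p = 0.0109, limma) on 1374153_at, the single member Affy_ID of 13 to pass beside 0.0773% of all Affy_IDs, and it passed with each of the 16 arrays left out in turn. The adult part of this was a rise of 1.93 and the young part a difference of -0.42. Against contralateral none passed, beside 0.0193% of all Affy_IDs, and the same Affy_ID differed by 1.83 (SE 0.29, adjusted p = 0.117). At an unadjusted p below 0.05 there were 5 member Affy_IDs against sham and 6 against contralateral, beside 6.28% and 4.81% of all Affy_IDs. All were of Pdcl3, Hspb1 and Hspb8. For Hspb8 1388721_at the difference of 1.15 against sham became 0.38 without young SNI replicate 2. Against contralateral its differences of 1.158 on 1388721_at and 1.145 on 1387282_at became 0.388 and 0.395. Without young SNI replicate 2 the difference on 1374153_at was 2.43 against sham (adjusted p = 0.0134) and 1.92 against contralateral (adjusted p = 0.0891). The other Pdcl3 Affy_IDs differed by 1.49 and 1.44 against sham (adjusted p = 0.154 and 0.351). The Hspb1 responses differed by 1.33 against sham (SE 0.49, 95% interval 0.25 to 2.41, adjusted p = 0.645) and by 1.24 against contralateral (adjusted p = 0.799), or by 1.04 and 0.94 without young SNI replicate 2.

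Hspb1 and Pdcl3 also varied among arrays of one label in the young, and on the control arrays Hspb1 and Pdcl3 1373052_at were highest and lowest largely where the injured neuron markers were. Over the 5 young control arrays the marker mean was highest on young sham replicate 2 (11.13), which had the highest Hspb1 (13.20) and the highest Pdcl3 on 1373052_at (10.55). The marker mean was lowest on young contralateral replicate 2 (6.07) and young sham replicate 3 (7.93), which had Hspb1 of 11.83 and 11.90 and Pdcl3 of 9.94 and 9.91. Pdcl3 1377779_at was likewise highest on young sham replicate 2 (9.39). Its lowest values were on young sham replicate 3 (8.25) and young contralateral replicate 2 (8.42). Pdcl3 1374153_at shared this order in part. It was highest on young sham replicate 2 (6.17), but its lowest value of 5.16 was on young contralateral replicate 1, where the marker mean was 9.74. Young SNI replicate 2 did not follow the marker order either, with a marker mean of 10.33, Hspb1 at 11.76 and Pdcl3 1373052_at at 9.98. The mean of 7 macrophage markers had the same ends over the young control arrays. It was 5.57 on young sham replicate 2, 4.37 on young contralateral replicate 2 and 4.90 on young sham replicate 3. On adult SNI arrays it was 5.80 to 6.32, and at most 5.60 on all others. The part of either cell type in these values was not tested. The deviations of Hspb1 and of Pdcl3 1373052_at from their group means had a Pearson correlation of 0.90 over the 16 arrays, which share labelling and scaling within each array. With Pdcl3 1374153_at and 1377779_at the correlation was lower, at 0.57 and 0.70.

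**Figure D4:**
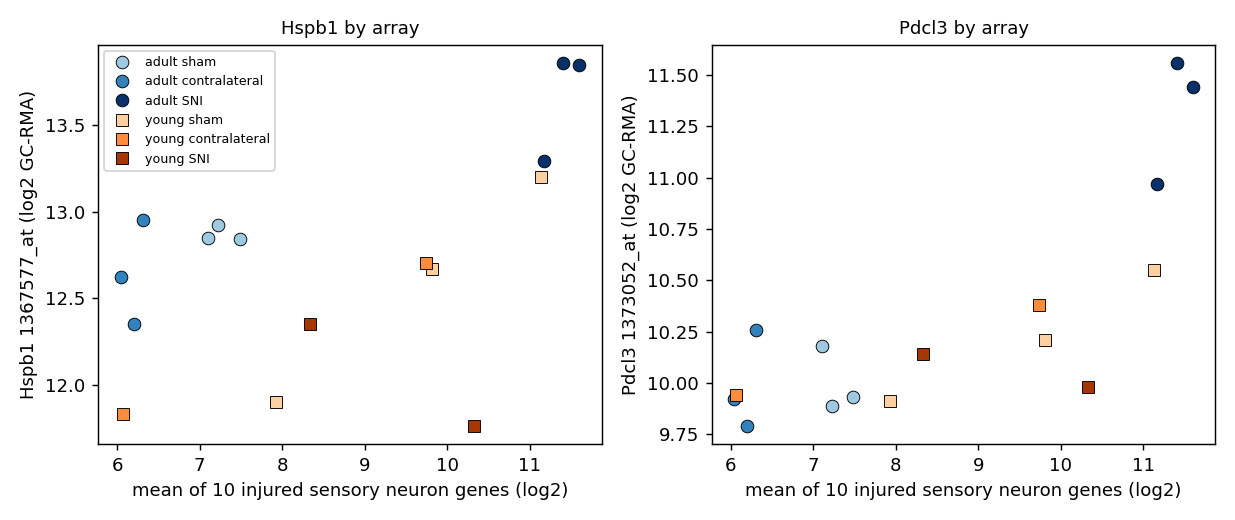
Log2 GC-RMA values of Hspb1 (left) and Pdcl3 1373052_at (right) on each of 16 arrays against the mean of 10 injured sensory neuron genes on the same array (circles adult, squares young, colour by group). Adult SNI arrays lie at the upper right, and young sham replicate 2 (marker mean 11.13) lies nearest to them.

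Among 11508 Affy_IDs of a single gene and a mean value of at least 6, those most like Hspb1 over the 16 arrays were Fuca2, a fucosidase (Pearson r = 0.957), Xdh, xanthine dehydrogenase (0.953), Cd59b, a complement regulator (0.952), Nucb2, nucleobindin 2 (0.943), and Bok, a Bcl-2 family protein (0.941). Those most like Pdcl3 1373052_at, a search added after its values were seen, were Gfra1, a GDNF family receptor (0.966), Rab15, a small GTPase (0.964), Pdcd2 (0.952), Pdlim1 (0.948) and Adcyap1, the neuropeptide PACAP (0.945). The points of these correlations are 6 groups of pools, so they describe a shared pattern over groups and arrays.

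Adult and young arrays, rather than injury groups, separated in Hsph1, which drives the cycle of Hsp70 and helps to dissolve aggregates. On 1385620_at it was 10.80, 11.02 and 11.15 in adult sham, 10.55, 11.15 and 10.74 in adult contralateral and 10.54, 10.98 and 10.53 in adult SNI. In the young it was 9.55, 9.88 and 9.51 with sham surgery, 9.73 and 9.60 contralaterally and 9.69 and 9.06 with SNI, so every adult array lay above every young array, which held for 1.39% of all Affy_IDs. On 1388898_at adult values ran from 11.22 to 11.85 and young values from 10.31 to 11.09, again without overlap. Adult controls exceeded young controls by 1.25 (SE 0.15, 2.37-fold, adjusted p = 0.00207, limma) and by 0.80 (SE 0.13, 1.74-fold, adjusted p = 0.00835) on these Affy_IDs, and both passed in all 16 fits that left out an array. They were the 2 of 13 member Affy_IDs that passed, beside 4.36% of all Affy_IDs.

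**Figure D5:**
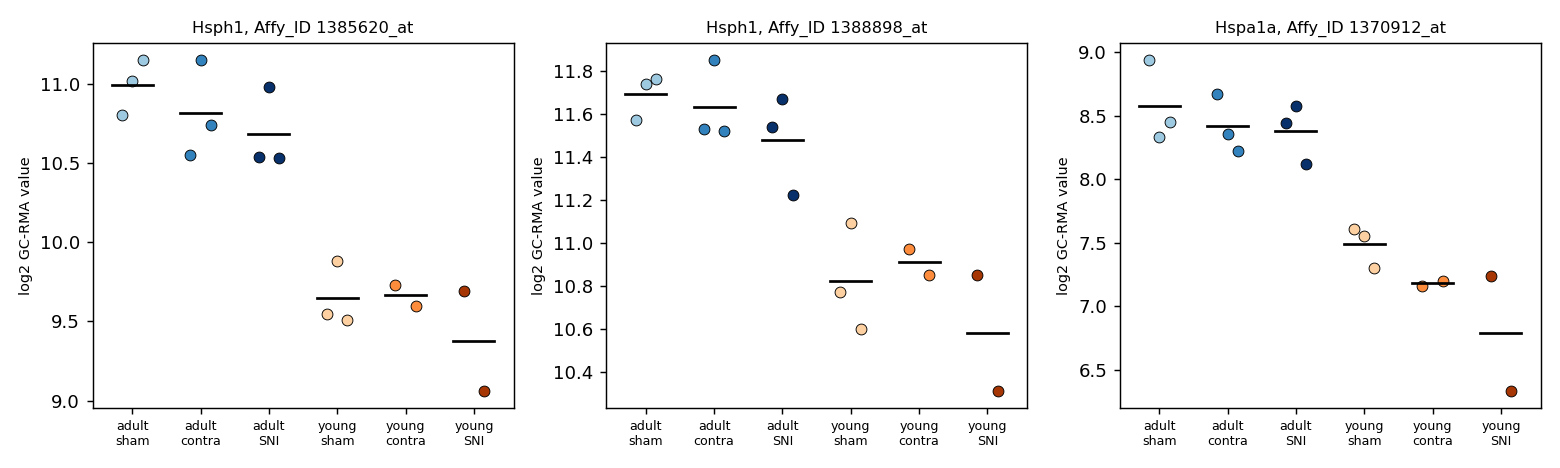
Log2 GC-RMA values of the 2 Hsph1 Affy_IDs and of Hspa1a on each of 16 arrays (points) by group, with group means (bars); vertical scales differ. All 9 adult arrays lie above all 7 young arrays in each panel.

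With sham arrays alone the age difference of Hsph1 was 1.34 (SE 0.20, adjusted p = 0.0152) and 0.87 (SE 0.17, adjusted p = 0.0507), 1 passing member Affy_ID beside 0.622% of all. With contralateral arrays alone it was 1.15 (adjusted p = 0.0864) and 0.72 (adjusted p = 0.188), none passing beside 0.177% of all; 2 member Affy_IDs had an unadjusted p below 0.05, beside 9.52% of all. The Hsph1 response to injury did not differ detectably with age, at -0.04 (95% interval -0.70 to 0.63) against sham on 1385620_at. Sex was not balanced with age, since Xist was low on all adult arrays and at 9.77 or above on 5 of 7 young arrays. Hsph1 1385620_at was 9.88 and 9.73 on the young arrays with low Xist (young sham replicate 2 and young contralateral replicate 1), below the adult minimum of 10.53. These were the highest young values, with the other young arrays from 9.06 to 9.69. On 1388898_at the same arrays were also the highest of the young, at 11.09 and 10.97. The other young arrays ran from 10.31 to 10.85 there, and the adult minimum was 11.22. The part of sex in the Hsph1 difference was not tested. Immediate early genes, which like heat shock genes can move during tissue collection, had a mean of 6.58 to 7.39 on adult arrays and 6.23 to 7.01 on young arrays; their part in this result was not tested. The other members did not pass between adult and young controls, with differences from -0.20 to 0.43.

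Between the SNI groups of the 2 ages 7 member Affy_IDs of 4 genes passed, all higher in adults, beside 2.64% of all Affy_IDs in either direction and 1.73% that were higher. These were Pdcl3 by 1.97 (SE 0.20, adjusted p = 0.00157), 1.41 (SE 0.28, adjusted p = 0.0313) and 1.26 (SE 0.23, adjusted p = 0.0194), Hsph1 by 1.31 (adjusted p = 0.0165) and 0.90 (adjusted p = 0.0368), Hspb1 by 1.61 (SE 0.37, adjusted p = 0.0456) and Hspb8 1388721_at by 1.59 (SE 0.34, adjusted p = 0.0363). The second Hspb8 Affy_ID differed by 1.35 (adjusted p = 0.0703). Without young SNI replicate 2, when 0.783% of all Affy_IDs passed, a single member Affy_ID passed, Pdcl3 1374153_at with 2.05 (adjusted p = 0.00596), and the others kept a positive difference: 1.32 for Hspb1, 0.99 and 0.63 for Hsph1, 0.82 for Hspb8 1388721_at. Without adult SNI replicate 2 a single one passed as well. The counts without adult sham replicate 2 (4), adult contralateral replicate 1 (3), adult contralateral replicate 3 (3) and adult SNI replicate 3 (3) were also lower. For the fits that left out an adult array the share of all Affy_IDs is not given, so these counts are not read as results about the members. With the replicate number as a block Hspb8 1388721_at (adjusted p = 0.0604) and Hsph1 1388898_at (adjusted p = 0.0593) missed the threshold.

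No member passed between the contralateral and sham groups in either age, beside 0% of all Affy_IDs in both (limma). At an unadjusted p below 0.05 there were 0 member Affy_IDs in adults and 1 in the young, beside 2.01% and 2.25% of all Affy_IDs. The largest member difference in adults was -0.27 for Pdcl3 1377779_at. In the young it was -0.56 for Pdcl3 1374153_at, which was 5.16 and 5.37 contralaterally and 5.38 to 6.17 with sham surgery.

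A further 104 chaperone genes of 8 families, each represented by its Affy_ID of highest mean, were set beside the members. None of them passed between SNI and controls at either age (limma), with 12 of 104 at an unadjusted p below 0.05 against both controls in adults and 12 in the young, beside 10% and 7.86% of all Affy_IDs. In adults the median difference from both controls was 0.07, with 62 of 104 above 0. The smallest p-values belonged to Eif2ak3, the ER stress kinase PERK, with 0.48 (SE 0.11, adjusted p = 0.0728), Dnajc27, a J protein, with -0.33 (adjusted p = 0.0833), and Bag2, a co-chaperone of Hsp70, with 0.66 (SE 0.18, adjusted p = 0.143). The family medians that follow also count the members, which the 104 genes leave out, so they are not independent of the member values. By family the adult medians ran from -0.01 for 23 J proteins to 0.18 for 23 ER chaperone and unfolded protein response genes. The median was 0.16 for the 16 genes listed under chaperonin and prefoldin. That list counts Hspd1, a chaperonin, and Pdcl3, which is a phosducin-like protein that works with the chaperonin CCT. The 8 small heat shock proteins had a median of 0.01, the 13 Hsp70 and Hsp110 genes 0.03, the 3 Hsp90 genes 0.12, the 22 co-chaperones 0.02 and the 4 heat shock regulators 0.00. In the young the median over the 104 genes was -0.21, with 18 above 0, and 0.00 without young SNI replicate 2, beside 0.0017 over all Affy_IDs. When replicate 2 was the remaining young SNI array, 22 of the 104 passed, beside 12.5% of all Affy_IDs.

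Between adult and young controls 9 of the 104 genes passed, 8 of them higher in adults, beside 4.36% of all Affy_IDs. Hspa1a, the heat-inducible Hsp70, was 8.94, 8.33 and 8.45 in adult sham, 8.67, 8.36 and 8.22 in adult contralateral, and in the young 7.61, 7.55 and 7.30 after sham surgery and 7.16 and 7.20 on the contralateral side. It differed by 1.16 (SE 0.17, adjusted p = 0.00611) and, like Hsph1, passed in all 16 fits that left out an array. Hspa1a has a near-identical copy in the genome, so its value is uncertain as that of a single gene. Hspa4l, an Hsp110 protein, was higher by 0.47 (adjusted p = 0.0318), Hsf4, a heat shock factor, by 0.90 (adjusted p = 0.0419) and Ero1a, an ER oxidase, by 0.62 (adjusted p = 0.0372). The J proteins Dnaja1, Dnaja4, Dnajb9 and Dnajc27 were higher by 0.31, 0.42, 0.49 and 0.30, and the ER J protein Dnajb11 was lower by 0.50 (adjusted p = 0.0292). All of these but Hspa1a lost the threshold in at least 4 of the fits that left out an array.

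Between adult and young SNI 4 of the 104 genes passed, all higher in adults, beside 2.64% of all Affy_IDs in either direction and 1.73% that were higher. These were Hspa1a by 1.60 (adjusted p = 0.0132), Dnaja1 by 0.61 (adjusted p = 0.0117), Dnaja4 by 0.62 (adjusted p = 0.0406) and Ddit3, the ER stress factor CHOP, by 1.42 (adjusted p = 0.0391). Without young SNI replicate 2 none of the 104 passed, beside 0.783% of all Affy_IDs, with 12 at an unadjusted p below 0.05 (limma) beside 9.62% of all. Without replicate 1 38 passed, beside 17.1% of all Affy_IDs. With replicate 2 left out the median difference of 0.33 became 0.08. Hspa1a was 8.44, 8.58 and 8.12 in adult SNI and 7.24 and 6.33 in young SNI, so both young arrays lay below the adult ones.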

How the data were processed

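RNA from pooled L4/L5 DRG had been hybridised to 16 Affymetrix rat genome 230 2.0 arrays, 1 array per pool. Per the labels, the authors normalised the arrays with GC-RMA and deposited log2 values; the version was not given in the sources used here. GC-RMA corrects background by base content and scales arrays to each other, which can hide a shift common to most genes; the deposited arrays still differed in their medians (5.13 to 5.475). The number of arrays limits the precision. After 57 control probe sets had been left out, 31042 were fitted with 6 group means over all arrays (limma 3.58.1, R 4.3.3), with Benjamini-Hochberg adjustment in each of 14 comparisons at 0.05. Gene names came from the platform annotation; 20758 single-gene probe sets were matched to the current reference by gene ID. All member Affy_IDs are given. From each chaperone list the text names genes that passed, up to 5 by p-value, or the 2 of smallest p-value where none did, and gives the values of some of these. Likeness is to Hspb1, the member of widest range of group means when each gene is taken at its Affy_ID of highest mean. The members and lists were chosen with earlier results of these data known. Same-numbered adult SNI and contralateral pools, which the labels number alike, deviated together (correlations 0.449, 0.445 and 0.362), so blocked values are given where they change a call. The block also ties same-numbered sham pools, which came from other rats. Their correlations with adult SNI pools were -0.041, 0.132 and 0.200. Alternatives were quantile normalisation, a filter on low values (above 4 on 2 arrays), an intensity trend, array weights, the replicate block, each age on its own, and leaving out each array. The fit was tested on simulated data.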

Additional observations from a re-analysis of the deposited data

Results flagged for a closer look

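Pdcl3 on 1374153_at was picked out because its response to SNI differed between adult and young rats in a direct test against sham. Pdcl3 was on the study's list of adult-only genes from these same arrays, so this is not independent evidence. Against contralateral this Affy_ID did not pass (1.83, SE 0.29, adjusted p = 0.117, limma). The other Pdcl3 Affy_IDs passed against neither control. On 1374153_at the adult difference from sham exceeded the young one by 2.35 (SE 0.27, adjusted p = 0.0109, limma). All 3 adult SNI arrays lay above all adult sham arrays, whereas young SNI was 5.32 and 5.49 beside 5.38 to 6.17 in young sham. The young sham arrays carried injured sensory neuron markers at 7.93 to 11.13, and the part of this in the difference was not tested. With each array left out in turn the difference stayed between 2.18 and 2.57 and passed in all 16 fits.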

How the results depend on the processing

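Under the replicate block, 1 member Affy_ID passed between adult SNI and sham instead of 2. The calls that changed under the block are given with their results, and the block changed no other member's call. Array weights gave 3 instead of 2 between adult SNI and sham, with Pdcl3 1377779_at passing (adjusted p = 0.0359), and the filter on low values gave 8 instead of 7 between the SNI groups. Between the sham groups of both ages, 2 passed instead of 1 under quantile normalisation, the filter on low values and array weights; between the contralateral groups, 1 passed under quantile normalisation and 2 under array weights instead of 0; between the SNI groups, 1 passed under array weights instead of 7. The cause was not tested. The share of all Affy_IDs that passed under these alternatives is not given, so these counts are not read as results about the members. Leaving out one array gave 1 to 3 passing Affy_IDs for adult SNI against sham (1 without adult sham replicate 1 or 2, or adult SNI replicate 2 or 3), 1 to 3 against contralateral (1 without adult contralateral replicate 1 or 3, or adult SNI replicate 2 or 3) and 2 to 3 against both. It gave 0 to 2 for each young SNI comparison (2 without young SNI replicate 1), 0 to 2 between sham groups (0 without adult sham replicate 2, young sham replicate 1 or 3), 0 to 1 between contralateral groups, 1 to 8 between SNI groups and 2 to 3 between controls. For the difference of responses it gave 1 to 4 against sham (4 without young SNI replicate 1) and 0 to 4 against contralateral. A fit that leaves young SNI or contralateral with 1 array assumes that it varies like the other groups. The share of all Affy_IDs that passed also shifted between these fits. A change in these counts is therefore not read as a result about the members. Hspb8 1387282_at in young SNI against both controls ranged from -1.48 to 0.019 over the fits that left out an array, and changed sign without young SNI replicate 2 (0.019). Over all member results and alternatives, 330 fits of passing results kept their call and 77 lost it, while of those that had not passed 35 passed and 135 changed sign.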

Other observations

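Affy_IDs of one member did not all move together over the 16 arrays: the pair of Hsph1 had a Pearson correlation of 0.98 and that of Hspb8 0.94, or 0.81 without young SNI replicate 2, but that of Dnajb1 0.25, or -0.01 without that array. Hspa5, the ER Hsp70, and Dnajb1 1388722_at, a cytosolic J protein, had a correlation of 0.88 over all arrays and 0.90 in their deviations from group means. Neither passed in any comparison. This pair is named as the highest between different members, whose correlations of deviations ran from -0.25 to 0.90. The deviations of Hspa5 and the Hsph1 Affy_IDs had correlations of 0.78 and 0.77. Dnajb1 1383302_at had a correlation of 0.02 with Hspa5, and of -0.03 in the deviations. All points share the labelling and scaling of their array.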
